A study of Homo sapiens with 9 samples.

Results

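Transcript levels in ACC-MESO-1 cells that carried the short hairpin RNA shLSD1 #2 were compared with those in the same line carrying a control shRNA. ACC-MESO-1 is an established human line of malignant mesothelioma, a cancer of the mesothelium that lines the chest cavity. The comparison used 6 of the 9 Clariom S arrays of the series, namely the 3 titled shLSD1 #2 (replicates 7, 8 and 9) and the 3 titled control (replicates 1, 2 and 3). Clusters were taken where the probe table gave exactly 1 gene symbol, which held for 17709 of the 21448 transcript clusters on the array and gave 17687 distinct genes. All cells were grown with 10% fetal bovine serum, and 100 ng of total RNA was labelled per array. The other 3 arrays carried a different hairpin against LSD1, shLSD1 #1, and served here for the shared estimate of the spread and for 1 comparison near the end. The sources used here give neither the hairpin sequences, nor the time between infection and harvest, nor the number of clones. The labels do not say that replicates were separate cultures, so p-values measure only the spread between arrays, which may be technical.

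LSD1 is a nuclear enzyme that removes methyl groups from lysine 4 of histone H3. It works in the CoREST complex, where the scaffold RCOR1 joins it to the histone deacetylases HDAC1 and HDAC2, and this complex is known for repressing genes, including neuronal genes marked by the repressor REST. Loss of LSD1 is also known, in other tumour cells, to bear on the interferon response, the set of antiviral genes that cells switch on when they sense foreign nucleic acid or secreted interferon. LSD1's own transcript is not analysed here, and how far it was reduced is not known from these values.

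Values are RMA signals on the log2 scale, so a difference of 1 is a 2-fold change. A gene was called when limma's moderated test gave a Benjamini-Hochberg adjusted p under 0.05 over all 21448 clusters. Signal counted as above the negative controls where it passed the 95th percentile of the 612 negative control probe sets of the same array, a limit of 7.22, 7.54 and 7.45 on the control arrays and at 7.35, 7.18 and 6.98 on the shLSD1 #2 arrays. Root mean square log2 differences over all clusters were 0.347 to 0.352 among control arrays, 0.344 to 0.395 among shLSD1 #2 arrays and 0.526 to 0.568 between the groups. The hybridization spike-ins, transcripts added to the mixture that do not come from the cells, averaged 11.30 to 11.38 on the control arrays. Replicates 7 and 9 of shLSD1 #2 lay near that level at 11.33 and 11.18, and replicate 8 lay lower at 10.93. Every gene among the largest changes named in the next paragraphs also passed without replicate 8. Of the markers of other cell types, 0 of 4 endothelial, 0 of 3 T-cell and 0 of 4 lung epithelial markers exceeded the negative controls on any of the 6 arrays. Of 2 B-cell markers, CD79A exceeded them on 1 array, shLSD1 #2 replicate 8 (7.26). Of 5 macrophage markers, CD68 and CSF1R exceeded them on all 6 arrays and PTPRC, CD14 and CD163 on none. Of 15 mesothelial and mesothelioma markers, 4 were above on every control array and 6 on every shLSD1 #2 array. KRT8 and KRT18, keratins of mesothelial cells, were high at 17.35 to 17.44 and 16.88 to 16.98, whereas CALB2, which encodes calretinin, stayed below the negative controls on all 6 arrays.

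Of the 17709 clusters with 1 symbol, 2532 were called (14.3%), 1271 of them higher with shLSD1 #2 (7.18%) and 1261 lower (7.12%). Changes of at least 2-fold numbered 640 (3.61%), with 274 higher (1.55%) and 366 lower (2.07%). Over all 21448 clusters, named or not, the shares were much the same, with 13.2% called, 6.56% higher and 6.63% lower, and at 2-fold 3.33% called, 1.41% higher and 1.92% lower. The 3 hairpin arrays all lay above the 3 control arrays in 3186 clusters with 1 symbol and all below in 2779 (15.7%), and over all clusters in 16.8% and 15.3%. Expressed genes carried most of the calls. Of 7648 genes above the negative controls on all 6 arrays, 1889 were called (24.7%), against 311 of the 8768 genes below on all 6 (3.55%), so the gene lists, most of which hold expressed genes, are read against both shares. The 2 directions were even in number but not in size. Among expressed genes, 241 fell and 153 rose by at least 1 on the log2 scale, and at a log2 change of 2 the counts were 45 and 8. Falls of at least 3 numbered 10, whereas no expressed gene rose that far. A further 37 called genes were above the negative controls on all 3 control arrays and on no shLSD1 #2 array, and 86 showed the opposite pattern.

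**Figure D1:**
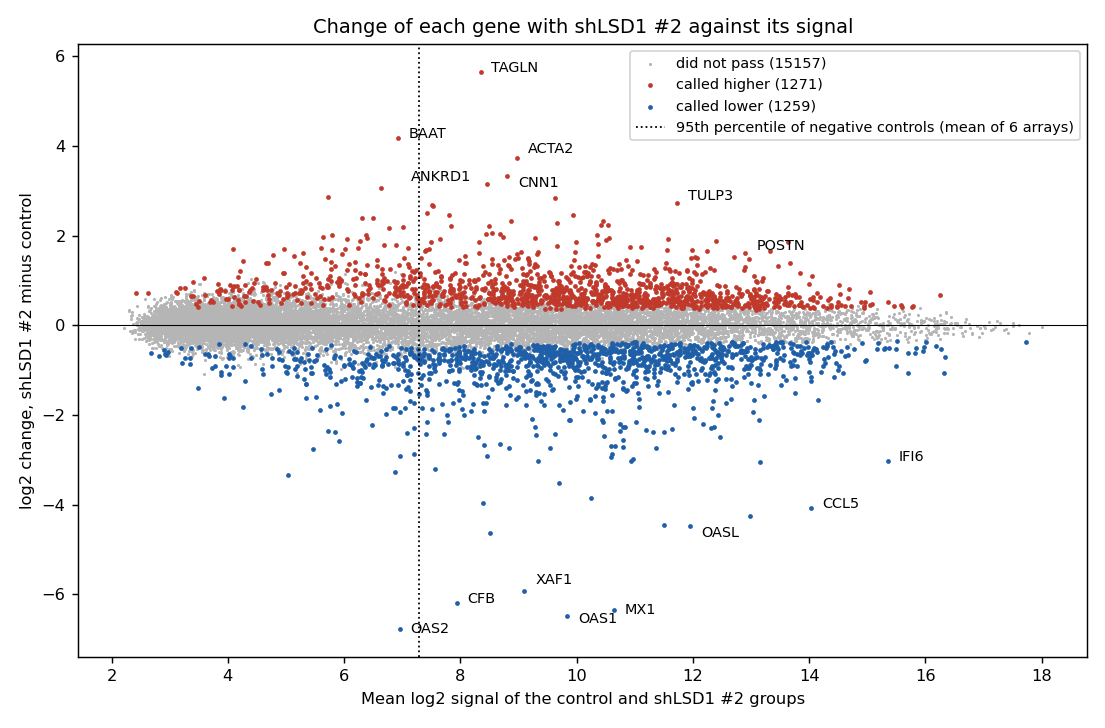
Log2 change of each of the 17687 genes (vertical axis, shLSD1 #2 minus control) against its mean log2 signal over both groups (horizontal axis). Points in red and blue passed the test, and the dotted line is the mean negative control limit. Named points below -4 are mostly antiviral genes, and TAGLN stands highest with a fitted difference of 5.65.

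The largest falls among expressed genes were in the interferon system. OASL, which encodes a helper of the RNA sensor RIG-I, read 14.28, 14.25 and 14.05 on the control arrays and 9.68, 9.60 and 9.86 on the shLSD1 #2 arrays. It fell by 4.48 ± 0.17 (log2, SE, n = 3 per group, adjusted p = 6.21e-07). The groups lay far apart, with little spread inside each. RSAD2, which encodes viperin, an enzyme that makes a chain-terminating nucleotide against viral polymerases, read 15.184, 15.004 and 15.146 in control and 10.94, 10.96 and 10.69 with the hairpin. Its change was -4.25 ± 0.12 (adjusted p = 6.3e-08). IFI27, a mitochondrial protein strongly induced by interferon, held 13.72 to 13.75 in control and 9.17 to 9.42 with shLSD1 #2, a change of -4.45. CCL5, a chemokine that attracts T cells, went from 16.04, 16.13 and 16.04 to 11.88, 12.10 and 12.04, a change of -4.06 ± 0.11 (adjusted p = 6.3e-08). ISG15, a small modifier that is attached to proteins after interferon, read 11.25, 11.50 and 11.60 in control and 7.65, 7.96 and 8.20 with the hairpin, and fell by 3.51. No control array overlapped a hairpin array for any of these genes, which held for 2528 of all 2530 called genes (99.9%).

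Several genes went from clear signal to the level of the negative controls, so only a lower bound of their fold can be given. The bound sets the group without signal to the mean of its negative control limits, 7.40 for control and 7.17 for shLSD1 #2. OAS1, which makes the second messenger that activates RNase L, read 13.04, 13.11 and 13.07 in control and 6.68, 6.38 and 6.73 with shLSD1 #2, at least 59.8-fold lower (adjusted p = 1.79e-08). XAF1, a pro-apoptotic interferon target, was at least 29.7-fold lower. For CFB, the gene of complement factor B, the bound was 14.6-fold lower. IFI44L was at least 12.6-fold lower, CMPK2, a mitochondrial nucleotide kinase next to RSAD2, at least 9.1-fold. For OAS2, from the same family as OAS1, the bound was 9.02-fold lower. MX1, a GTPase that blocks virus replication, kept signal just above the limit on 2 of 3 hairpin arrays. Its values were 13.77, 13.81 and 13.86 against 7.17, 7.54 and 7.67, a change of -6.35 ± 0.14 (adjusted p = 1.79e-08). Genes outside the interferon gene lists used below fell too, and whether interferon acts on them was not tested. SLC12A8, a membrane transporter, was at least 6.65-fold lower and IGFL2, a member of the insulin-like growth factor-like family, at least 3.99-fold. PLCG2, a phospholipase of immune receptor signalling, fell by 3.85, and IL7R, the interleukin-7 receptor chain, by 2.94.

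The promoters shown were picked because they match the interferon-stimulated response element (ISRE), the site bound by STAT and IRF factors. No match was found for OASL, CCL5, OAS1, OAS2, XAF1 or CMPK2, whether for lack of the motif or of a window. The stretches come from RefSeq promoter windows on GRCh38.p14, run 5′ to 3′ on the gene's strand upstream of its annotated start, and were chosen after the values were seen. Capitals mark matches to the pattern GAAA, any 2 bases, GAAA, on either strand. They lie at chr2:6877612-6877661 (RSAD2, plus strand), chr14:94110608-94110670 (IFI27, plus), chr1:27672256-27672368 (IFI6, minus), chr1:1013364-1013419 (ISG15, plus), chr1:78620264-78620404 (IFI44L, plus) and chr6:31945935-31945984 (CFB, plus).
RSAD2: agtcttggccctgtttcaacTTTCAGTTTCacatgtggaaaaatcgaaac
IFI27: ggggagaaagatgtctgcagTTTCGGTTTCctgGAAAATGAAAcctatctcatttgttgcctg
IFI6: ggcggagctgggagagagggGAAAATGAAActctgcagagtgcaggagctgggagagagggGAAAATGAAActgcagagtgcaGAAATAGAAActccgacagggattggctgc
ISG15: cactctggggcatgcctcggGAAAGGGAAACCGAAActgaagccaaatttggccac
IFI44L: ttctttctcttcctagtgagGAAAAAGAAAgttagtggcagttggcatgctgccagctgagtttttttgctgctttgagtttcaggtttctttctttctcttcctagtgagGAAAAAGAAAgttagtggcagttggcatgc
CFB: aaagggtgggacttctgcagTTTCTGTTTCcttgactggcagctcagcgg
IFI6 held 3 matches in its stretch, IFI27, IFI44L and ISG15 held 2 each, those of ISG15 overlapping, and RSAD2 and CFB held 1 each. A match describes letters and is not evidence that a factor was bound.

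Over all genes, the share with an ISRE was highest among those called at least 2-fold lower. Of 14250 measured genes with a promoter window (250 bases before to 50 after a start), 589 held the motif (4.13%). It stood in 49 of 284 genes called at least 2-fold lower (17.3%), in 31 of 751 called lower by less (4.13%) and in 9 of 219 called at least 2-fold higher (4.11%). Most genes with the motif did not change. Of the 589, 80 were called lower (13.6%) and 29 higher (4.92%), and their median log2 change was -0.03. Among 38 antiviral effectors with a window, 27 held it (71.1%). A gene counted if any of its windows held a motif, and windows per gene averaged 1.41 over all genes, 1.51 for the lower set and 1.58 for the higher set.

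**Figure D2:**
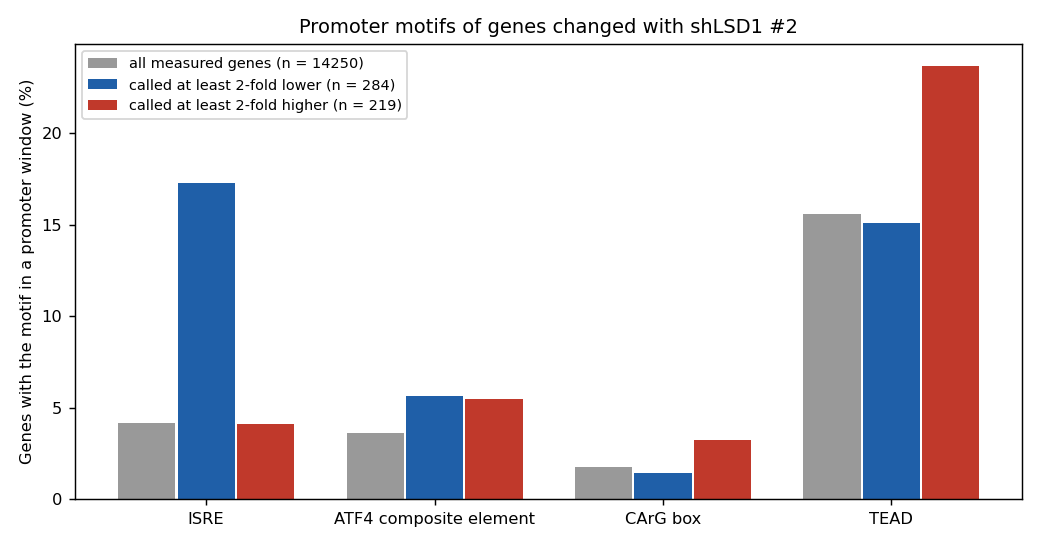
Share of genes (%, vertical axis) with a promoter window that holds each of 4 motifs, for all 14250 measured genes with a window, the 284 called at least 2-fold lower and the 219 called at least 2-fold higher. The ISRE bar of the lower set is at 17.3% against 4.13% for all genes, and the TEAD bar of the higher set at 23.7% against 15.6%.

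The interferon system was then followed from ligand to target. The 9 measured genes that encode interferons were below the negative controls on all 6 arrays and none was called, so no change in interferon transcripts was detectable here. Of 16 receptors, kinases and transcription factors, 6 fell and 0 rose, with a median log2 change of -0.33 (over all 21448 clusters the median was 0.02). The receptor chains IFNAR1 and IFNAR2 did not pass, at 0.42 and 0.01, and neither did the kinases JAK1 and TYK2, at -0.24 and -0.34. The falls named next were further down the pathway, though no STAT gene was among the 16, so that step is not covered. IRF9, the DNA-binding partner of the STAT complex that reads the ISRE, went from 11.93, 11.97 and 12.004 in control to 9.63, 9.55 and 9.89, a change of -2.27. IRF1 fell by 1.02. USP18, which removes ISG15 and damps receptor signalling, changed by -2.74. The count of 6 was 3 without control replicate 3, without shLSD1 #2 replicate 7 or without replicate 8.

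Sensors of foreign nucleic acid fell as well. Of 17 measured sensors and adaptors 11 were lower and 0 higher, with a median of -0.71. IFIH1, which encodes the RNA sensor MDA5, read 12.44, 12.41 and 12.55 in control and 9.45, 9.49 and 9.48 with shLSD1 #2, a change of -2.99 ± 0.099 (adjusted p = 2.17e-07). RIGI, its relative for short RNA with a triphosphate end, fell by 2.49, and DHX58, which modulates both, by 2.43. STING1, the adaptor for cytosolic DNA, fell by 2.20 and IFI16, a nuclear DNA sensor, by 1.99. CGAS, the enzyme upstream of STING1, fell by 0.60. The shared signalling parts moved little, with MAVS at -0.03 and the kinase TBK1 at 0.15, neither of which passed.

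Antiviral effectors were the list that moved most. Of 47 measured, 43 fell and 0 rose, 40 of them by at least 2-fold, and all 47 had a change below 0, with a median of -2.14. Averaged over its members, signal was 11.88 ± 0.018 in control and 9.40 ± 0.062 with shLSD1 #2 (log2, SD, n = 3 arrays). Leaving out any array gave 41 or 42 lower. The largest falls after those described above were IFIT3 at -3.05, IFI6 at -3.03, IFIT2 at -3.02 and PLSCR1, a phospholipid scramblase, at -2.87. Members with small changes included IFITM3, a membrane protein that blocks viral fusion, at -0.36. Members of families such as IFIT, IFITM and OAS resemble each other to differing degrees. Where members are alike, probes may share signal, which was not tested, so values of single members are uncertain there. LY6E and TRIM5, expressed on all 6 arrays, were at -0.19 and -0.40 and did not pass. Of 10 guanylate-binding proteins and apolipoproteins L, which attack intracellular pathogens, 8 fell and 0 rose, led by APOL1 at -2.70 and GBP3 at -2.10, and GBP4 was at least 3.21-fold lower.

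**Figure D3:**
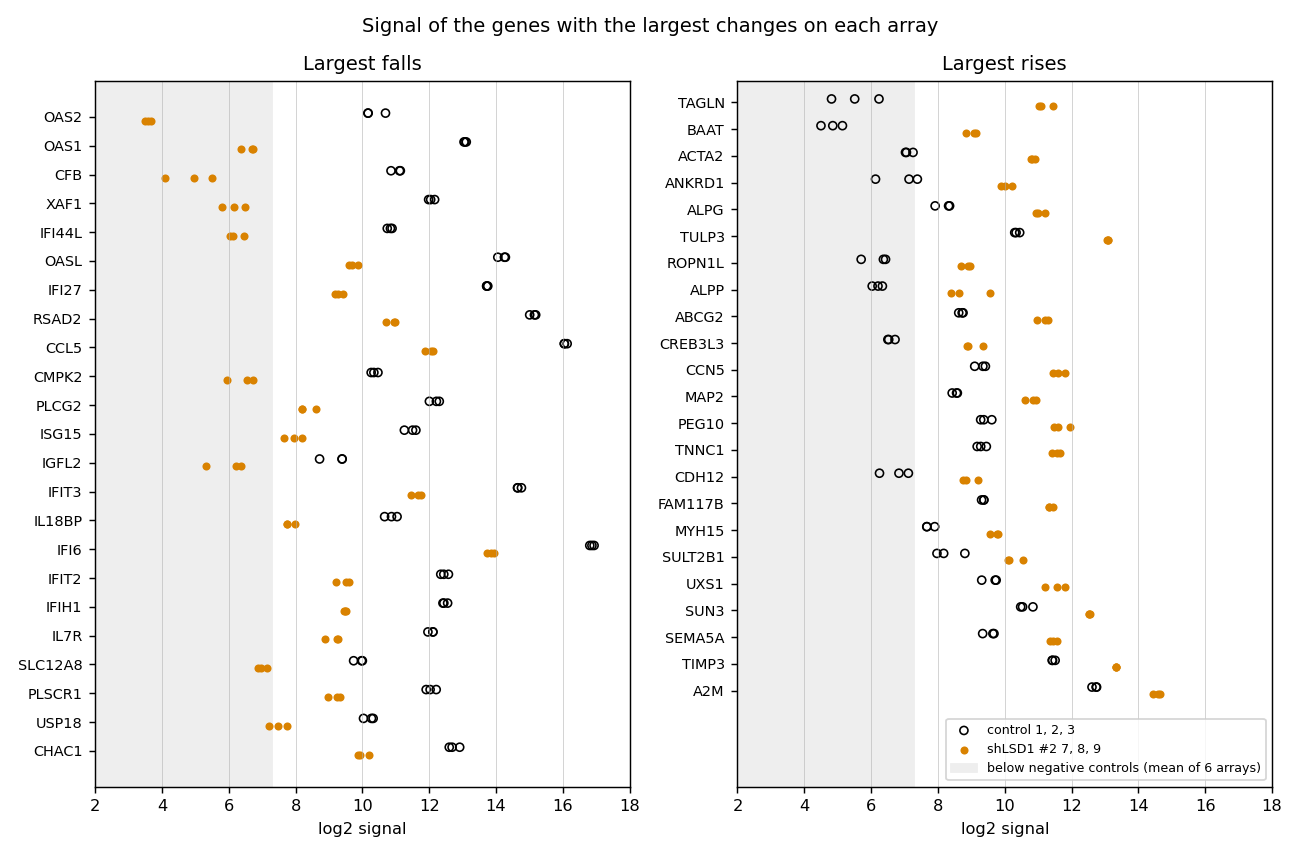
Log2 signal on each of the 6 arrays (horizontal axis) for the genes with the largest falls (left) and rises (right), 15 expressed genes and 8 genes bounded by background per direction. Open circles are control replicates, filled circles shLSD1 #2 replicates, and the grey area lies below the mean negative control limit. The groups do not overlap for any gene shown, which held for 99.9% of called genes. The filled points of OAS1, OAS2, CFB, XAF1 and IFI44L lie in the grey area.

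Antigen presentation by MHC class I fell by smaller amounts. Of 15 measured genes 12 were lower and 0 higher, all 15 changes were below 0, and the median was -0.83. TAP1, which pumps peptides into the endoplasmic reticulum, read 10.06, 9.94 and 10.20 in control and 8.40, 8.43 and 8.73 with the hairpin, a change of -1.55 ± 0.13. B2M, the light chain of class I molecules, fell by 1.05. HLA-C, HLA-F and HLA-E fell by 1.28, 1.25 and 1.23, and since HLA genes are near-identical over long stretches, their probes may not tell them apart. The mean of the list varied by an SD of 0.0031 among control arrays (11.63) and 0.078 among shLSD1 #2 arrays (10.79).

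Complement, cytokine and checkpoint genes followed in part. Of 13 complement genes 5 fell and 1 rose (7 were below the negative controls on all 6 arrays). C3, the central component, went from 9.81, 10.23 and 10.00 to 8.08, 7.996 and 8.64, a change of -1.77. C1RL, a protease that resembles C1R, fell by 1.73. Of the regulators that shield cells from complement, CD59 fell by 0.77, CD46 stood at -0.12 and did not pass, and CD55 was called higher at 0.44, a call lost without control replicate 2, control replicate 3 or shLSD1 #2 replicate 7. Among 27 chemokines and cytokines 8 fell and 0 rose, though 18 were below the negative controls throughout. CSF1, the macrophage growth factor, fell by 1.91, IL32 by 1.32 and CCL2, a monocyte attractant, by 1.08, and IL6 was at least 1.75-fold lower. Of 15 NF-kB subunits and feedback genes 7 fell and all 15 changes were below 0. Falls of at least 2-fold numbered 4. NFKBIA, which encodes the inhibitor I-kappa-B alpha, fell by 1.51, TRAF1 by 1.23, TNFAIP3 (A20) by 1.13 and TNIP1 by 1.05. The call of TRAF1 was kept in 11 of 15 alternatives. The subunit RELA stood at -0.16 and did not pass, and the other subunits are not described here. Of 16 checkpoint and natural killer ligands 8 fell and 2 rose. IDO1, a tryptophan-degrading enzyme that restrains T cells, was at least 3.4-fold lower, NECTIN2, a ligand of natural killer receptors, fell by 1.20, and NT5E (CD73), which makes adenosine, rose by 0.93. The count of rises was 1 with each of the 6 arrays left out in turn.

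The largest rises were in genes of the contractile apparatus of smooth muscle. TAGLN, the gene of transgelin, which binds actin filaments, read 4.82, 6.24 and 5.51 on the control arrays, all below the negative controls, and 11.07, 11.01 and 11.44 with shLSD1 #2. It was at least 13.6-fold higher (adjusted p = 4.92e-06). ACTA2, smooth muscle alpha-actin, read 7.06, 7.03 and 7.25 in control and 10.82, 10.91 and 10.80 with the hairpin, at least 10.9-fold higher (adjusted p = 1.54e-07). CNN1, calponin, stood at 7.45, 6.99 and 7.01 against 10.40, 10.42 and 10.60, a change of 3.32 with 1 control array above the limit. Control arrays thus held little or no signal for these genes, and all 3 hairpin arrays held a clear one.

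The contractile list as a whole moved less than these leading genes. Of 31 measured members 13 rose and 0 fell, with a median of 0.22, and 9 to 12 rose when each array was left out in turn, 9 of them without replicate 8. TPM1 and TPM2, tropomyosins that line actin filaments, rose by 1.01 and 0.66, and MYL9, the regulatory myosin light chain, by 0.69. The cytoskeletal actins ACTB and ACTG1 stood at -0.02 and 0.06, VCL (vinculin) at -0.28 and ACTN1 at 0.22, and none of these passed. Of 15 regulators of SRF, the transcription factor that drives contractile genes, 1 rose and 1 fell (13.3% called, against a background of 14.3%). SRF itself was at -0.16, its coactivators MRTFA and MRTFB at 0.15 and 0.30, and none passed. FHL2, a coregulator and SRF target, rose by 0.59. The CArG box, the SRF site, stood in 8 of the 25 contractile genes with a window (32.0%), against 1.74% of all genes. It stood in 3.2% of the genes called at least 2-fold higher and in 1.41% of those called at least 2-fold lower. No CArG match was found for the risers TAGLN, ACTA2, CNN1 or TPM1, whether for lack of the motif or of a window. Windows per gene averaged 1.84 in the contractile list and 1.41 over all genes.

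The few YAP and TEAD targets that were called went both ways. ANKRD1, a muscle ankyrin-repeat protein and YAP target, read 6.13, 7.13 and 7.38 in control and 9.88, 10.21 and 10.00 with shLSD1 #2, at least 6.18-fold higher. CCN2, connective tissue growth factor, rose by 1.11, while F3, tissue factor, fell by 1.43. Of 20 measured members 3 rose and 1 fell, YAP1, WWTR1 and CCN1 stood at -0.06, -0.27 and -0.41 without passing, and the median was 0.09. The letters GGAATG, the core of the TEAD site, were found on either strand in 52 of the 219 genes called at least 2-fold higher (23.7%), in 15.1% of those called at least 2-fold lower and in 15.6% of all genes with a window. The stretch of ANKRD1 is shown as the leading target on this list, at chr10:90921190-90921327 (minus strand, GRCh38.p14), with the 2 matches in capitals.
ANKRD1: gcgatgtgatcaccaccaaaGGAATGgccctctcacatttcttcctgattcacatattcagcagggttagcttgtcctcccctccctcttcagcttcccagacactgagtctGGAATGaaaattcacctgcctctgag
So short a motif is frequent, and its presence says nothing of binding.

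Expressed genes with the largest rises came from varied families. TULP3, a tubby-like protein that carries receptors into primary cilia, read 10.34, 10.30 and 10.45 in control and 13.09, 13.07 and 13.08 with shLSD1 #2, a rise of 2.72 ± 0.11 (adjusted p = 6.5e-07). ALPG, a germ-cell alkaline phosphatase, rose by 2.85, and its near-identical neighbour ALPP, the placental form, was at least 2.73-fold higher, so signal may be shared between them. ABCG2, a pump that exports drugs, rose by 2.46, from 8.62 to 8.75 in control to 10.98 to 11.28. MAP2, a microtubule protein of neurons, rose by 2.28, PEG10, a domesticated retrotransposon gene expressed from the paternal allele, by 2.24, and TNNC1, cardiac troponin C, by 2.24. CCN5, a relative of CCN2 that lacks its last domain, rose by 2.32, TIMP3, a matrix-bound inhibitor of metalloproteinases, by 1.89 and A2M, a broad protease inhibitor, by 1.86. TIMP3 read 13.34 on all 3 hairpin arrays, against 11.42 to 11.51 in control. Genes without control signal included CREB3L3, a transcription factor tethered in the endoplasmic reticulum, at least 3.1-fold higher. The bound was 3.06-fold for BAAT, an enzyme that conjugates bile acids, and 2.9-fold for CDH12, a neuronal cadherin.

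The series asks how LSD1 bears on mesenchymal traits, so genes of epithelial and mesenchymal state were examined next. They did not move as a block. VIM, vimentin, stood at 16.20 to 16.23 in control and 16.05 to 16.14 with shLSD1 #2 (-0.12, adjusted p = 0.49). CDH2, N-cadherin, stood at 0.10 (adjusted p = 0.72) and SNAI2, a repressor of epithelial genes, at -0.26 (adjusted p = 0.218). ZEB1, a further repressor of epithelial genes, was called lower at -0.41, a call kept in 5 of 15 alternatives. CDH1, E-cadherin, was called higher but stayed below the negative controls on all 6 arrays, and its call was kept in 9 of 15 alternatives. FN1, fibronectin, fell from 12.60 to 12.65 in control to 11.10 to 11.48, a change of -1.27 ± 0.15 (adjusted p = 0.000621). Of 15 factors of epithelial-mesenchymal transition 2 fell and 0 rose (13.3% called, against a background of 14.3%). The larger fall was KLF4, a factor of epithelial differentiation, at least 2.54-fold lower (8.40, 8.49 and 8.65 against 5.07, 5.33 and 5.31).

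Mesenchymal and matrix genes moved both ways. Of 25 mesenchymal matrix and surface genes 4 rose and 5 fell. LUM, the collagen-binding proteoglycan lumican, rose by 2.21 with 1 control array above the limit, and POSTN, periostin, rose by 1.61, from 11.99, 12.12 and 12.18 to 13.61, 13.82 and 13.69. FAP, a protease of activated fibroblasts, fell by 2.01 and THY1 (CD90) by 1.64. The 5 fibroblast markers had a mean signal of 7.49 to 7.65 on control arrays and 8.55 to 8.64 on shLSD1 #2 arrays. LUM, POSTN and COL1A2 (0.59, kept in 10 of 15 alternatives) were the ones with signal, whereas PDGFRA and DCN, which define fibroblasts, were below the negative controls on all 6 arrays. In RNA from a whole culture, fewer cells of a type and less RNA per cell cannot be told apart. Of 19 collagen genes 3 fell and 1 rose (21.1% called, between the background shares of 14.3% and 24.7%), with COL6A1 at -1.30 and COL6A2 at -0.77. The rise was lost without control replicate 3 or without shLSD1 #2 replicate 7 or 8. Of 14 genes for collagen modification 5 fell and 1 rose, led by PLOD2, a lysyl hydroxylase, at -1.05, and SERPINH1, the collagen chaperone, at -0.90. Among 22 integrins and laminins 3 fell and 0 rose (13.6% called, not above either background share). These were LAMC1 and ITGA2 at -0.80 each and LAMB1 at -0.72.

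Proteases, junctions and mesothelial genes showed the same mixture. Of 32 proteases and inhibitors 13 fell and 3 rose, and 8 fell without replicate 7 or without replicate 8. TIMP1 fell by 1.05 while TIMP3 rose, and PLAUR, the urokinase receptor, fell by 0.99. Among 22 cadherins, catenins and junction genes 4 rose and 4 fell, with CDH3 (P-cadherin) at -1.29, CLDN4 at -1.15 and CLDN1 at -0.78, and the rises numbered 1 to 3 when each array was left out. Of 14 mesothelial genes 3 fell and 2 rose, and 1 rose without control replicate 2 or without shLSD1 #2 replicate 8 or 9. MUC1, a membrane mucin, fell by 1.73, MSLN (mesothelin) read 12.01, 11.91 and 12.06 against 11.10, 10.70 and 11.34 and fell by 0.95, and DPP4 fell by 0.93. UPK3B, a uroplakin of mesothelium, was at least 1.16-fold higher.

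Growth factor genes moved both ways. FGF2, basic fibroblast growth factor, read 13.37, 13.43 and 13.50 in control and 11.51, 11.87 and 11.75 with shLSD1 #2, a fall of 1.72 ± 0.13. VEGFC, which drives lymphatic growth, changed by -1.499. HBEGF, a ligand of the EGF receptor, rose by 2.07 (7.32 to 7.74 against 9.49 to 9.63) and MET, the receptor of hepatocyte growth factor, by 1.29. Of 38 receptor tyrosine kinases and ligands 5 rose and 7 fell (31.6% called, against background shares of 14.3% and 24.7%). The rises numbered 3 without control replicate 2 or replicate 9, and the falls 4 without control replicate 3. In the TGF-beta and BMP pathway 8 of 35 rose and 5 fell. TGFBR1, the type I receptor, rose by 1.47 (10.03 to 10.15 against 11.52 to 11.61), SMURF2, a ligase that degrades it, by 1.10, and ID2, a BMP target that blocks differentiation factors, by 1.51. ID1 and ID3 rose by 0.66 and 0.69. The 5 falls numbered 1 to 4 when each array was left out, with 1 without control replicate 1 or shLSD1 #2 replicate 8. Immediate early genes and MAP kinase feedback genes fell in 9 of 33 cases and rose in 1. JUNB fell by 1.28 and ETV5, a reader of MAP kinase activity, by 1.11, whereas ATF3 rose by 1.05.

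Genes of the integrated stress response fell together. This pathway, read out by the transcription factor ATF4, raises amino acid transport and synthesis when translation is curbed. Of 27 measured targets 16 fell and 1 rose, with a median of -0.69, and 15 or 16 fell when each array was left out. CHAC1, which degrades glutathione, read 12.68, 12.60 and 12.91 in control and 9.92, 9.86 and 10.21 with shLSD1 #2, a fall of 2.73 ± 0.15 (adjusted p = 4.61e-06). DDIT4, an inhibitor of mTORC1, fell by 2.42, NUPR1, a stress-induced chromatin protein, by 1.91, and ASNS, asparagine synthetase, by 1.31. ATF4 itself fell by 0.91. GDF15, a secreted stress hormone, was the exception at 1.14. The promoter stretches of CHAC1 (chr15:40953242-40953289, plus strand) and ASNS (chr7:97872449-97872496, minus strand) are shown on GRCh38.p14 because both hold the ATF4 composite element, with capitals on matches to TGATGNAA on either strand.
CHAC1: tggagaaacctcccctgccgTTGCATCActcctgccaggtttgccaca
ASNS: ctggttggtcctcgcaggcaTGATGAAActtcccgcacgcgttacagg
The element stood in 9 of 24 targets with a window (37.5%), against 3.59% of all genes, 5.63% of genes called at least 2-fold lower and 5.48% of those called at least 2-fold higher.

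Enzymes that supply and charge amino acids were lower in part. PHGDH, the entry enzyme of serine synthesis, fell by 1.85 (12.83 to 13.04 against 10.93 to 11.26), PSAT1, the next enzyme, by 1.14, and MTHFD1L, a mitochondrial folate enzyme, by 1.11. Of 12 serine and one-carbon genes 5 fell and 0 rose, with SHMT2 at -0.15 and PSPH at -0.19 among those that did not pass, and 3 fell without control replicate 1, control replicate 3 or shLSD1 #2 replicate 7. Of 16 aminoacyl-tRNA synthetases 8 fell and 1 rose. WARS1, the tryptophan enzyme, also an interferon target, fell most at -2.11 ± 0.11, ahead of NARS1 at -0.91 and AARS1 at -0.89. Chaperones of the endoplasmic reticulum moved little. There 4 of 24 fell and 0 rose (16.7% called, between the background shares of 14.3% and 24.7%). HSPA5 (BiP) stood at 0.01 and did not pass, and XBP1 fell by 0.73. The falls numbered 2 without control replicate 1, control replicate 2, or shLSD1 #2 replicate 7 or 8. Among glutathione and NRF2 targets 8 of 25 fell, with ME1 at -0.94 and GCLM at -0.77, and 5 fell without replicate 7. The 1 rise was HMOX1, heme oxygenase, at 2.03, with 2 of 3 control arrays above the limit.

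**Figure D4:**
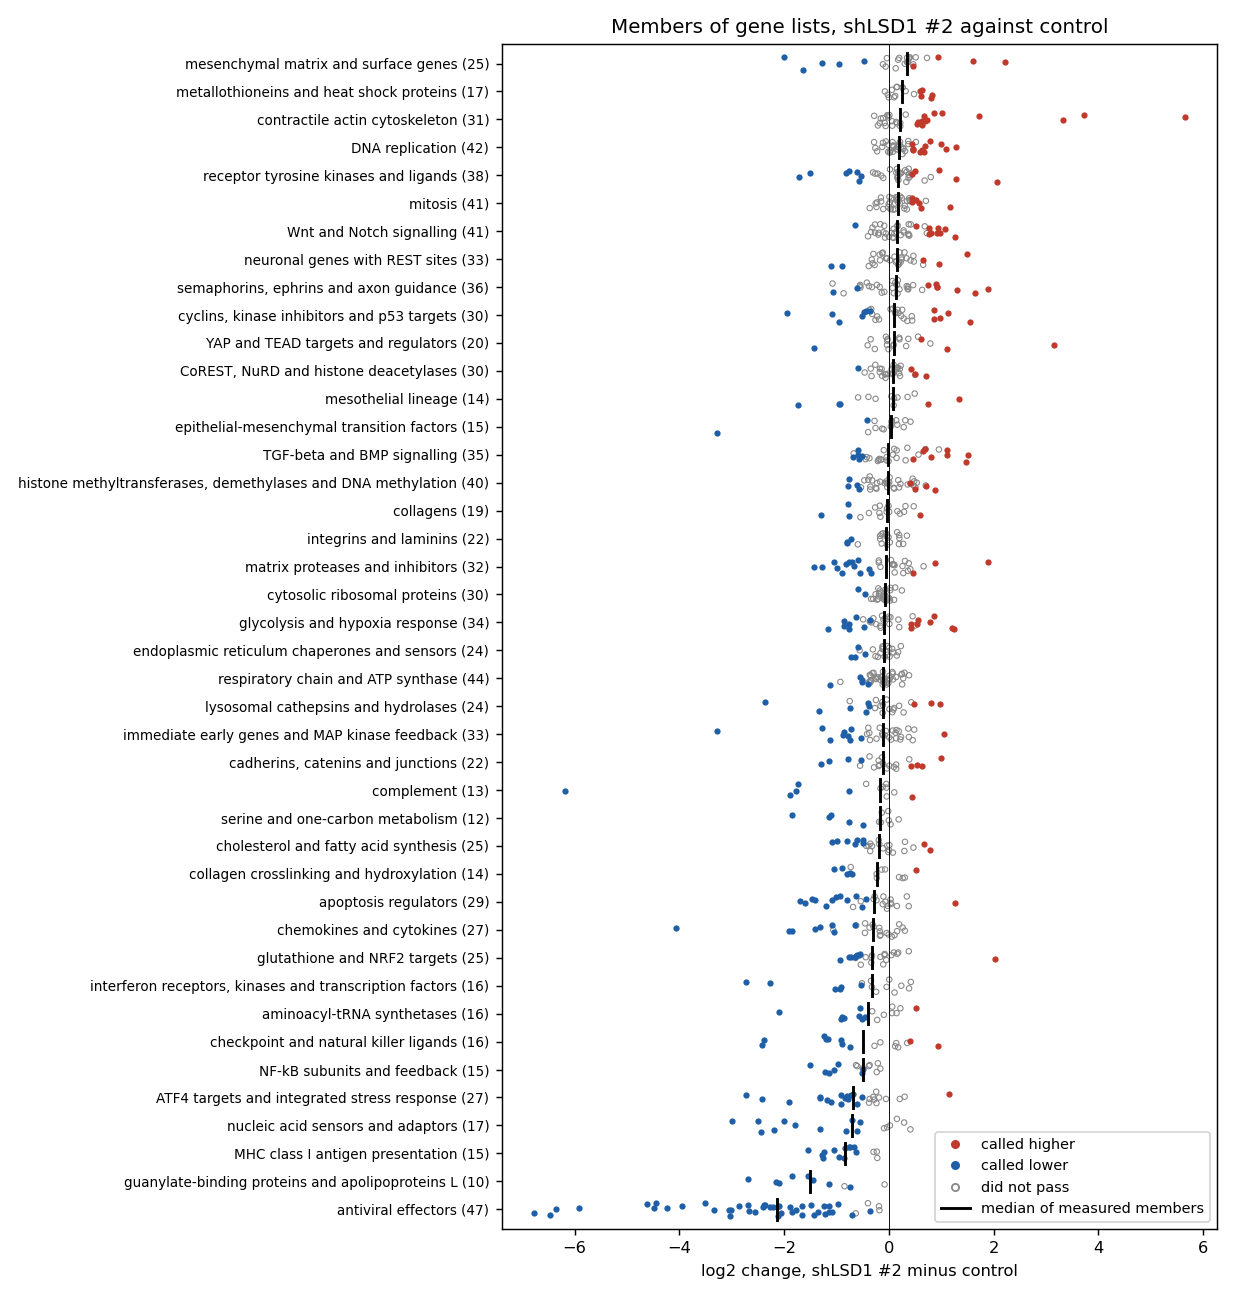
Log2 change (horizontal axis, shLSD1 #2 minus control) of every measured member of 42 of the 48 gene lists, with the number measured in parentheses. Red and blue points passed the test, open points did not, and black bars are medians, from -2.14 for antiviral effectors to 0.35 for mesenchymal matrix and surface genes.

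The replication and mitosis genes that were called were all higher. Of 42 DNA replication genes 11 rose and 0 fell (26.2%), with a median of 0.20. Called higher were 7.18% of clusters with 1 symbol and 923 of 7648 expressed genes. The mitosis share given below lay nearer to these. In either direction 24.7% of expressed genes were called. Changes above 0, called or not, numbered 34 of 42 replication genes and 32 of 41 mitosis genes. PRIM1, the primase subunit, rose by 1.29 (9.88 to 10.02 against 11.11 to 11.28), EXO1, an exonuclease of mismatch repair, by 1.10, and MCM4, part of the replicative helicase, by 0.79. Leaving out an array gave 8 to 10 rises, while the fit of arrays with high spike-in signal alone gave 4. Of 41 mitosis genes 6 rose and 0 fell (14.6%), a count that ranged from 1 to 16 over the alternatives and was 2 without control replicate 2 or shLSD1 #2 replicate 7 and 3 without control replicate 1. CDC25A, the phosphatase that opens S phase, was at least 1.4-fold higher. Cyclin and p53 genes split: CDK6 rose by 1.55 and CCND1, cyclin D1, by 0.87, while CDKN1A (p21) read 11.38, 11.23 and 11.24 against 9.38, 9.22 and 9.42 and fell by 1.95 ± 0.15 (adjusted p = 3.56e-05). Of these 30 genes 5 rose and 7 fell, and the falls numbered 3 to 5 when each array was left out, with 3 without control replicate 2 or shLSD1 #2 replicate 7 or 8.

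Apoptosis regulators fell on both sides of the pathway. Of 29 measured 12 fell and 1 rose, with a median of -0.29. CASP4, an inflammatory caspase that senses bacterial lipopolysaccharide, fell by 1.69, TNFRSF10B, the death receptor for TRAIL, by 1.46, and BCL2L11 (BIM), a killer of the BCL2 family, by 1.20. The survival factor MCL1 fell by 0.94. TNFRSF10D, a decoy receptor for TRAIL, was called higher with signal on the hairpin arrays only, but its lower bound was no change (1.00-fold), and this call did not pass when any array other than control replicate 1 was left out.

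Metabolic lists differed in the share of genes called, and few of their changes reached 2-fold. Among 25 genes of cholesterol and fatty acid synthesis 7 fell and 2 rose (36.0% called, above the background shares of 14.3% and 24.7%). FADS2, a fatty acid desaturase, stood at -1.09 and SREBF1, the lipogenic transcription factor, at -0.99. Glycolysis and hypoxia genes split 8 higher and 8 lower of 34 (47.1% called, also above both shares). SLC2A3 (a glucose transporter) stood at -1.17 and ADM (adrenomedullin) at 1.25. Leaving out 1 array gave 3 to 6 rises and 5 to 7 falls, with 3 rises and 5 falls without replicate 8. Respiratory chain genes fell in 5 of 44 cases (11.4% called, under the background of 14.3%), COX5A most at -1.13. They fell in 2 to 4 cases when an array was left out (2 without any 1 control array or without replicate 8). Of 30 cytosolic ribosomal proteins 2 fell (6.7%), with a median of -0.08, and 1 fell without control replicate 1, control replicate 3 or shLSD1 #2 replicate 8. Under the trended robust prior the falls numbered 15 and 10, and 6 respiratory chain genes rose.

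**Figure D5:**
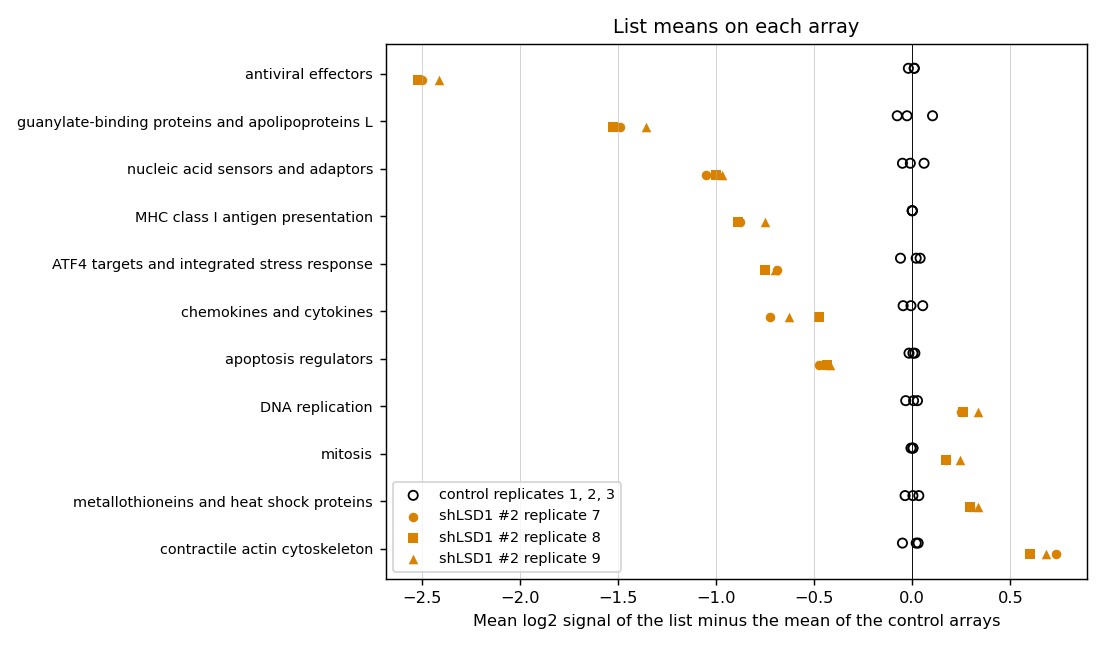
Mean log2 signal of 11 gene lists on each array, minus the mean of the 3 control arrays (horizontal axis). Open circles are control replicates and filled symbols the shLSD1 #2 replicates 7, 8 and 9. In each list shown the 3 hairpin arrays lie on the same side of all 3 control arrays, and replicate 8 does not stand apart from 7 and 9 in the antiviral list.

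The partners of LSD1 changed little. RCOR1, the CoREST scaffold, read 7.21, 7.42 and 7.47 in control and 7.61, 7.97 and 8.02 with shLSD1 #2 (0.50, adjusted p = 0.0772). HDAC1 stood at 0.14 (adjusted p = 0.545), and HDAC2 was called higher at 0.50, a call kept in 11 of 15 alternatives. Of 30 CoREST, NuRD and deacetylase genes 3 rose and 1 fell, near the background share, with 1 rise and 0 falls without replicate 8 or control replicate 1. Of 40 histone methylation and DNA methylation genes 4 rose and 4 fell, with SUV39H2, a methyltransferase for lysine 9 of histone H3, at 0.88 and KDM6A, a demethylase for lysine 27, at -0.78. Leaving out an array gave 1 to 3 rises and 2 or 3 falls. Neuronal genes with REST sites stayed mostly silent. Of 33 measured, 29 were below the negative controls on all 6 arrays, 3 were called higher and 2 lower. The share called was 15.2%, against 14.3% of clusters with 1 symbol and 3.55% of genes below on all 6 arrays. Of the REST list 0 were lower without control replicate 1 or shLSD1 #2 replicate 8. L1CAM, a neural adhesion molecule, was the expressed riser at 0.96 (9.03 to 9.62 against 10.23 to 10.46). Of 17 HOX genes 13 were below the negative controls throughout, and HOXB2 fell by 1.08.

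Shares of called guidance and Wnt genes lay above that of all clusters with 1 symbol (14.3%) and near that of expressed genes (24.7%). Many members were not expressed, and genes below the negative controls on all 6 arrays were called in 3.55% of cases. Of 36 semaphorins, ephrins and axon guidance genes 7 rose and 2 fell (25%), with 18 below on all 6 arrays. Without replicate 9 the falls numbered 5. SEMA5A rose by 1.90 (9.34, 9.64 and 9.68 against 11.44, 11.36 and 11.56), SEMA3E by 1.65 and SEMA3A by 1.30, while SEMA4B fell by 1.08. Of 41 Wnt and Notch genes 9 rose and 1 fell (24.4%), with 26 below the negative controls on all 6 arrays. SFRP1, a secreted Wnt antagonist, rose by 1.26 and LGR4, a receptor for R-spondins, by 0.91. Heat shock proteins and metallothioneins rose in 5 of 17 cases (29.4%) and fell in 0. BAG3, a cochaperone, rose by 0.82, whereas the metallothionein MT2A stood at 0.00. The rises numbered 3 without control replicate 1 or 2. Among 24 lysosomal genes 6 fell and 3 rose, with CTSL (cathepsin L) at -1.33 and its close relative CTSV at 0.98, and 3 fell with each of the 6 arrays left out in turn.

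Called genes were also read along the chromosomes. Runs of at least 4 neighbouring genes called in the same direction numbered 8. Pregnancy-specific glycoprotein genes PSG8, PSG1, PSG6, PSG7 and PSG11 on chromosome 19 were called higher, the call of PSG11 being kept in 7 of 15 alternatives. PSG8, PSG6 and PSG1 had signal on all 6 arrays and rose by 1.11 to 1.49, with PSG1 at 8.33 to 8.46 in control and 9.75 to 10.03 with shLSD1 #2. The chorionic gonadotropin genes CGB3, CGB2, CGB1 and CGB5 on the same chromosome were called higher. Of these CGB3 and CGB5 had signal on all 6 arrays, at 0.42 and 0.64, and their calls were kept in 6 and 10 of 15 alternatives. Both families are near-identical copies, so probes may share signal and the runs may count a few genes several times. A run of zinc-finger genes there, ZNF567, ZNF850, ZNF790 and ZNF345, was called higher, and the first 3, with signal on all 6 arrays, rose by 0.61, 0.93 and 0.85. On chromosome 9, CD274 (the checkpoint ligand PD-L1), PDCD1LG2 (PD-L2), RIC1 and ERMP1 were called lower. RIC1 and ERMP1 were expressed on all 6 arrays and fell by 1.00 and 0.82. CD274 was above the limit on 1 control array only and its call was kept in 9 of 15 alternatives, and PDCD1LG2 lay below on all 6. On chromosome 14, IFI27L1, IFI27, IFI27L2 and PPP4R4 were called lower, IFI27L1 and IFI27L2 by 0.96 and 0.72. The call of IFI27L2 was kept in 10 of 15 alternatives and that of PPP4R4 in 10 of 14. The other 3 runs were WEE1 to ADM on chromosome 11, IFT80 to KPNA4 on chromosome 3 and ZNF367 to PRXL2C on chromosome 9, all higher. HABP4 in the last was at least 2.3-fold higher. These runs held calls that were often lost. WEE1 was kept in 10 of 15 alternatives, SMC4 and KPNA4 on chromosome 3 in 7 and 6. On chromosome 9, ZNF367, CDC14B and PRXL2C were kept in 8, 5 and 8. A run of 4 no longer counts when the call of 1 member is lost.

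The change with shLSD1 #2 was also set against that with shLSD1 #1 by testing the difference of the hairpins. Of 21448 clusters 0 were called in limma, the smallest adjusted p was 0.446, and 1687 had an unadjusted p under 0.05. The unadjusted 95% interval of a difference reached a median of 0.37 to each side on the log2 scale, and larger differences, given next, did not pass after adjustment either. Both comparisons share the 3 control arrays, and values are given side by side only. CHAC1 changed by -2.73 with shLSD1 #2 and by -2.07 with shLSD1 #1, a difference of -0.67 (95% interval -1.0 to -0.33, adjusted p = 0.479). KMT2D, a methyltransferase for lysine 4 of histone H3, stood at -0.58 and 0.21, a difference of -0.79 (-1.05 to -0.53, adjusted p = 0.446), the largest among expressed called genes. DPM3, of the mannose donor pathway, stood at -0.91 and -1.67, and SLC50A1, a sugar transporter, at -2.48 and -3.23. Genes named beyond the 4 largest changes of a list, and these differences, were chosen after their values were seen.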

How the data were processed

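The deposited values are log2 signals, summarised per transcript cluster with RMA in Affymetrix Expression Console 1.4, per the submitters' processing notes. The log base was taken as 2, and the software's library files and options are not stated in the labels. RMA scales arrays to a common distribution, so a shift of all transcripts cannot be seen. Of 24351 values per array, 2903 from control probe sets were set aside. Columns not used numbered 0. Where a gene had several clusters (20 genes), that with the highest mean was used.

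limma 3.58.1 (R 4.3.3) was fitted to all 9 arrays with 3 groups (lmFit, eBayes without trend), and shLSD1 #2 minus control was tested two-sided, with Benjamini-Hochberg adjustment over 21448 clusters. Residual degrees of freedom were 6. On simulated data with 200 changed clusters, this comparison recovered 0% at a log2 change of 0.5, 78% at 1 and 100% at 2. In the real data 2827 clusters were called, and the Benjamini-Hochberg cut depends on how many clusters change. The simulated shares therefore do not give the recovery in the real data, where some changes under 0.5 were called. The number of arrays limits the precision.

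Genes named were the 15 largest expressed rises and falls called, the 8 largest bounds per direction, up to 4 called members per list, VIM, CDH1, CDH2, ZEB1, SNAI2, FN1, RCOR1, HDAC1 and HDAC2, and runs of at least 4 neighbours. The 48 lists hold 1279 genes, 1143 of them measured and 380 called. Members and lists were chosen with earlier results of these data known. Gene positions and promoter windows are from RefSeq, GRCh38.p14, and plots used matplotlib 3.10.9. Alternatives were other normalizations, a filter on dim clusters, other variance models, spike-in class and omission of arrays.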

Additional observations from a re-analysis of the deposited data

How the results depend on the processing

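In the 15 alternatives, 0 of the 2827 called clusters were called in the opposite direction. Of 227 called genes of the naming rule, 171 passed under every alternative that tested them, among them every gene of the largest changes and bounds. CASP10, counted here, was tested in 14 of the 15, as the filter on dim clusters removed it. Of 27 further called genes given in the text, 20 did, and CD55, CGAS, DPM3, ID1, IFITM3, KMT2D and TNFRSF10D did not. Calls numbered 1450 (699 higher, 751 lower) on arrays of high spike-in signal only, which drops both shLSD1 #2 replicate 8 and the 3 shLSD1 #1 arrays with their share of the spread. A block for spike-in class gave the 1940 calls of the fit without replicate 8. Leaving out each array gave 1918 to 2334 calls, 933 (without control replicate 2) to 1114 higher and 969 to 1220 lower, and at 2-fold 293 to 330 higher and 385 to 459 lower. The trended robust prior gave 3829, omission of dim clusters 3452. Why counts moved was not tested beyond fewer arrays or clusters entering a fit. Genes below the negative controls have no reliable fold. No paired analysis was possible because the groups share no replicate numbers.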

Other observations

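Of 639 genes called at least 2-fold, 481 stood in no list. Several of the largest changes are of this kind. SUN3, a nuclear envelope protein best known from sperm cells, read 10.53, 10.48 and 10.84 in control and 12.55, 12.53 and 12.52 with shLSD1 #2, a rise of 1.92 ± 0.15 (log2, SE, n = 3 per group, adjusted p = 3.82e-05). FAM117B rose by 2.01, MYH15, a myosin heavy chain, by 1.97, SULT2B1, a sulfotransferase for cholesterol and steroids, by 1.94, and UXS1, which makes UDP-xylose for proteoglycan chains, by 1.94. ROPN1L, a protein of the sperm tail, was at least 2.72-fold higher. In the other direction IL18BP, a secreted decoy for interleukin-18, went from 10.66, 10.87 and 11.04 to 7.73, 7.99 and 7.74, a change of -3.03. None of these genes had overlapping groups, which held for 99.9% of called genes.

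Of 5 macrophage markers, 2 were above the negative controls on all 6 arrays. CD68, a lysosomal protein that many cultured cells also express, fell by 1.35 (11.80 to 12.05 against 10.41 to 10.74). CSF1R, the receptor for CSF1, stood at 0.03 and did not pass (7.92 to 7.997 against 7.77 to 8.14). PTPRC, CD14 and CD163 stayed below the negative controls on all 6 arrays. Their part in the results was not tested.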
